A study of Mus musculus with 9 samples.

Results

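The mitochondrial genome of the mouse encodes 37 genes, and all 37 were present in a heart RNA-seq series of 9 libraries. They were chosen by name, as the rows whose Ensembl identifier maps to a mouse symbol starting with mt-, and they are 37 of the 55401 genes in the deposited count table. Among them are 13 genes for proteins, 2 genes for ribosomal RNA and 22 genes for transfer RNA. Every one of the 37 had counts in all 9 libraries, and all 37 passed the filter on low counts that left 19091 genes for testing.

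The mitochondrial genome is a small circular DNA, kept in many copies per cell, and both of its strands are transcribed as long RNAs that cover many genes at once. Transfer RNAs lie between most of the other genes and are cut out of these long RNAs, which releases the messenger RNAs and the ribosomal RNAs. All 13 proteins are subunits of the respiratory chain or of ATP synthase, which heart muscle relies on for most of its ATP, and they work in complexes with many subunits encoded in the nucleus. Most of the messenger RNAs carry short poly(A) tails, whereas mature transfer RNAs do not.

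The libraries form 3 groups of 3 by their treatment label. Kmo_AngII hearts are labelled Kmo together with Ang II and have Ang II as their treatment, AngII hearts received Ang II (angiotensin II, a peptide that constricts blood vessels), and Ctrl hearts received PBS, the buffer control. All are from C57BL/6 mice. No genotype, age, dose or duration is used here, and the labels do not explain Kmo, which could be a gene or an agent. A prefix in the sample titles gives a further grouping, in which WA holds Ctrl replicates 2 and 3 and AngII replicate 3, WC holds Ctrl replicate 1 and AngII replicates 1 and 2, and KKA holds all of Kmo_AngII. Kmo_AngII and the prefix KKA therefore cannot be told apart. The labels do not say whether the libraries of a group come from separate animals, so the p-values here measure the spread among these samples alone, and that spread may be technical.

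Total counts per library ranged from 56827533 to 73194268. The summed level of 10 cardiomyocyte markers was 18862 to 44955 CPM (counts scaled to a common library size by TMM) in Kmo_AngII, 23811 to 37031 CPM in AngII and 30989 to 47954 CPM in Ctrl with no marker at 0 in any library. The submitters' protocol speaks of an adipose type, and 6 adipocyte markers summed to at most 30.1 CPM, in Kmo_AngII replicate 3. That library also had the most atrial muscle marker RNA (1249.8 CPM over 5 genes), followed by Ctrl replicate 2 (166 CPM), while the other 7 libraries had at most 7.17 CPM. The scaling factors of the trimmed mean of M-values (TMM) ranged from 0.681 to 1.36.

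The sequences of 5 transcripts show what the counts below rest on. They are transcript sequences from GENCODE M21 (GRCm38), printed 5′ to 3′. mt-Nd3, a subunit of complex I, lies on the mitochondrial genome (MT) and has a nearly identical gene model on chromosome 1, Gm28438. Over the 345 aligned bases they differ by T3C, counted from 1 at the 5′ end of mt-Nd3 with the mt-Nd3 base first. The first 60 bases of each are shown with this base in capitals, since the rest of the 2 sequences gives a read no means to tell them apart.
mt-Nd3: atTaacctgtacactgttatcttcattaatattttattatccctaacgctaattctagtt
Gm28438: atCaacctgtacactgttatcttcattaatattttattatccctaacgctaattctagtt

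mt-Atp8, a small subunit of ATP synthase, had the widest difference between AngII and Ctrl hearts of the 13 protein genes. The last 43 of its 204 bases, in capitals, are also the first bases of mt-Atp6, which follows it in another reading frame, so a read that lies within them belongs to both genes.
mt-Atp8: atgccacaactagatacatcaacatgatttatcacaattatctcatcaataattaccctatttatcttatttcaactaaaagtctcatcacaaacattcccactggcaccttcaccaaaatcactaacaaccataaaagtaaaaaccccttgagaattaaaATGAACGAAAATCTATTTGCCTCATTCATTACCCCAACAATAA

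The transfer RNA genes mt-Tp (proline) and mt-Te (glutamate) are shown because they had the 2 smallest p-values among the 22 transfer RNAs. Both lie on the strand opposite to most of the other genes, as do 6 further transfer RNAs and mt-Nd6.
mt-Tp: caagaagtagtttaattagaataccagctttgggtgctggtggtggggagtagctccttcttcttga
mt-Te: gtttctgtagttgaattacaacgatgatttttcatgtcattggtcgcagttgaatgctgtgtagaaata

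The nuclear genome carries copies of mitochondrial DNA, and 7 gene models on chromosome 1 matched a mitochondrial protein gene at 99% identity or more over at least 100 bases. Each is annotated as an unprocessed pseudogene. Gm10222 (mt-Nd4l), Gm10925 (mt-Atp6), Gm28437 (mt-Co3), Gm28439 (mt-Nd4) and Gm28661 (mt-Co2) matched without a mismatch, over 63.6% of mt-Nd4 and over 99 to 99.9% of the other 4. Gm28438 and Gm29216 had 1 mismatch each, over 345 of the 348 bases of mt-Nd3 and over 483 of the 1545 bases of mt-Co1.

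These 7 models had 88194 to 2427671 counts per library. The count of Gm10925 was 0.986 to 1.01 times that of mt-Atp6 over the 9 libraries, and the count of Gm28438 was 0.999 to 1.09 times that of mt-Nd3. The ratio was 0.865 to 0.991 for Gm10222, 0.922 to 0.981 for Gm28437 and 0.91 to 0.962 for Gm28661, so 5 of the 7 models had almost the same count as the mitochondrial gene they resemble. The models that match only a part of their gene had lower ratios, 0.225 to 0.399 for Gm28439 and 0.145 to 0.261 for Gm29216. The other 13 models that matched a mitochondrial gene, at 87.5 to 97.6% identity, had 0 to 17711 counts. Whether reads were split or counted at both places was not tested, so the levels of mt-Atp6, mt-Co1, mt-Co2, mt-Co3, mt-Nd3, mt-Nd4 and mt-Nd4l are uncertain by up to the count of their model.

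**Figure D1:**
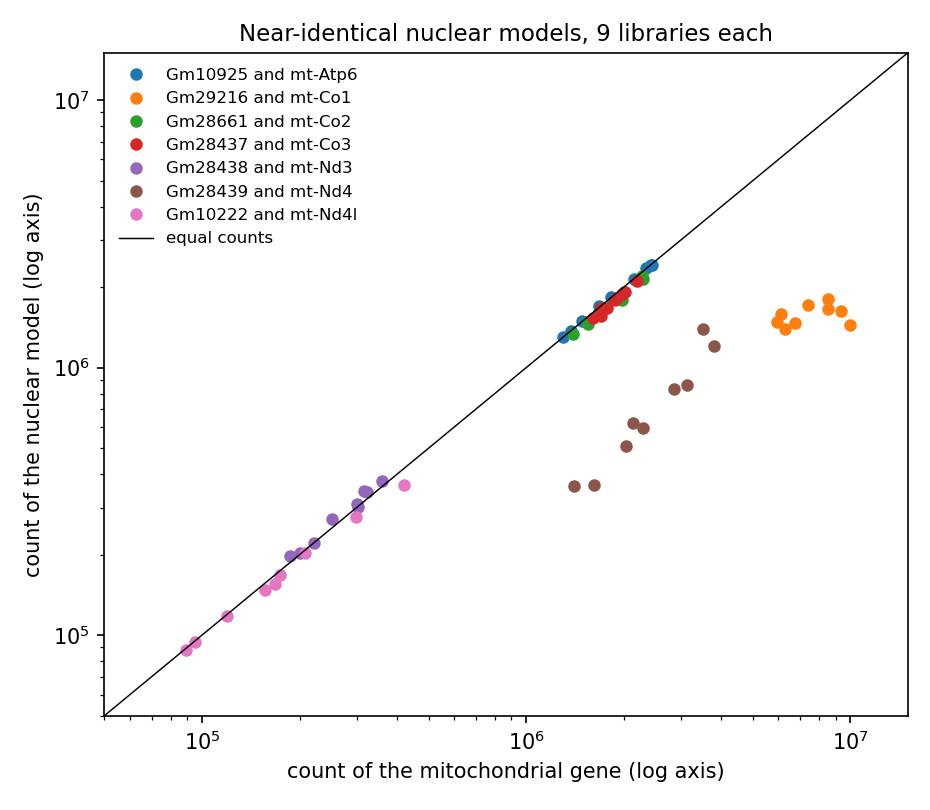
Counts of 7 nuclear gene models on chromosome 1 (vertical, log axis) against the counts of the mitochondrial genes they match at 99% identity or more (horizontal, log axis), with 1 point for each of 9 libraries. The points of 5 models lie close to the line of equal counts, while those of Gm28439 (0.225 to 0.399 times mt-Nd4) and Gm29216 (0.145 to 0.261 times mt-Co1) lie below it.

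Per kilobase of transcript, the protein genes had the highest levels and most transfer RNAs the lowest. mt-Co1, a catalytic subunit of complex IV, was at the top with 82379 ± 33846 TMM-scaled CPM per kilobase (SD, n = 9 libraries), and it exceeded the next gene in 9 of 9 libraries. The next was mt-Cytb, the mitochondrial subunit of complex III, with 48384 CPM per kilobase. It exceeded mt-Atp6 (46914 CPM per kilobase) in only 4 of 9 libraries, and mt-Atp6 exceeded mt-Co2 (44482 CPM per kilobase) in 6, so these 3 neighbours were not separated beyond their spread. mt-Co3 (38016), mt-Nd1 (36435), mt-Nd4 (31669), mt-Atp8 (31659.7), mt-Nd2 (24288) and mt-Nd6 (21417 CPM per kilobase) followed, each above the next in 6 to 8 of 9 libraries. mt-Nd3 (12196), mt-Nd5 (12160.4) and mt-Nd4l (11457 CPM per kilobase) were the lowest protein genes and lay within each other's spread. Of the protein genes, mt-Atp6, mt-Co1, mt-Co2, mt-Co3, mt-Nd3, mt-Nd4 and mt-Nd4l have a near-identical nuclear model and the others have none. The order of the protein genes is therefore uncertain by up to the counts of these models.

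The rRNA genes ranked below all protein genes on this scale, with 6337 CPM per kilobase for mt-Rnr1 (12S rRNA, of the small mitochondrial ribosomal subunit) and 5887 CPM per kilobase for mt-Rnr2 (16S rRNA, of the large subunit). Transfer RNAs spanned the widest range, 13408 CPM per kilobase for mt-Ts1 (serine) at the top, 9343 for mt-Te and 4257 for mt-Tl1 (leucine), against 35.4 for mt-Ts2 (serine) and 11 CPM per kilobase for mt-Tg (glycine) at the bottom. mt-Tg had 7 to 101 counts per library and mt-Ts2 had 50 to 267, the only members under 80 counts in any library, so their levels carry the largest counting error. Per the submitters' protocol poly(A) RNA was isolated with oligo-T beads, although the same text also names a poly(A)- fraction. In the counts of rRNA and transfer RNA genes, precursors, tailed fragments and mature molecules cannot be told apart.

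Mitochondrially encoded genes took up a large and variable part of every library. Their share of all counts was 30.5, 41.5 and 55.5% in Kmo_AngII hearts, 32, 39.5 and 30.3% in AngII hearts and 48.3, 52.6 and 43.4% in Ctrl hearts. All 3 AngII libraries lay below all 3 Ctrl libraries, while Kmo_AngII spanned nearly the whole range and held the highest library of the series. The group means were 42.5 ± 12.5% in Kmo_AngII, 33.9 ± 4.87% in AngII and 48.1 ± 4.62% in Ctrl (SD, n = 3 each). AngII minus Ctrl was -14.1 percentage points, with an exact two-sided permutation p of 0.1, the smallest that 3 against 3 libraries can give, so no p under 0.05 was possible. Within the title prefix WA the difference was -17.7 points (1 AngII and 2 Ctrl libraries), and within WC it was -12.6 points (2 AngII libraries and 1 Ctrl library). Because AngII and Ctrl do not overlap, the same sign within both prefixes was fixed in advance. In RNA from whole tissue, fewer cells of a type and less RNA per cell cannot be told apart.

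The near-identical nuclear models moved with the mitochondrial genes. Of all counts, they held 10.1, 13.3 and 15% in Kmo_AngII hearts, 10.9, 12.6 and 10.5% in AngII hearts and 15.1, 15.4 and 12.7% in Ctrl hearts. With these models counted as mitochondrial, the share of all counts was 40.6, 54.8 and 70.5% in Kmo_AngII hearts, 43, 52.1 and 40.8% in AngII hearts and 63.4, 68 and 56.1% in Ctrl hearts, and the AngII libraries again lay below the Ctrl libraries. With the models left out of the total, it averaged 49 ± 15.7% in Kmo_AngII, 38.3 ± 6.01% in AngII and 56.3 ± 6.27% in Ctrl (SD, n = 3 each).

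By class, the groups did not overlap for protein genes and overlapped for rRNA. Protein genes gave 90.6 to 97.2% of all mitochondrially encoded counts per library, and their share of all counts averaged 31.6 ± 5.18% in AngII and 46.5 ± 4.45% in Ctrl (SD, n = 3 each, no overlap). The rRNA share of all counts was 2.7, 1.6 and 1.77% in AngII and 1.67, 1.36 and 1.07% in Ctrl, which overlapped (exact permutation p = 0.2). The tRNA share of all counts averaged 0.276 ± 0.0358% in AngII and 0.262 ± 0.034% in Ctrl (exact permutation p = 0.7, n = 3 each).

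Within the mitochondrially encoded counts, rRNA took a larger share in AngII than in Ctrl hearts. This share leaves nuclear counts out, but it depends on how reads were assigned between protein genes and their near-identical nuclear models, which was not tested. The rRNA genes held 3.04, 4.07 and 2.2% in Kmo_AngII hearts, 8.43, 4.06 and 5.85% in AngII hearts and 3.45, 2.59 and 2.46% in Ctrl hearts. Every AngII library lay above every Ctrl library, and AngII replicate 2 was nearly equal to Kmo_AngII replicate 2. AngII minus Ctrl was 3.28 points (exact permutation p = 0.1, n = 3 each). It was 3.33 points within WA and 2.79 points within WC, where the shared sign follows from the lack of overlap. Kmo_AngII minus AngII was -3.01 points (exact permutation p = 0.2) and Kmo_AngII minus Ctrl was 0.269 points (exact permutation p = 0.7). An exact permutation test of the F statistic over the 3 treatment groups, with 1680 assignments, gave p = 0.05 for rRNA and 0.0321 for mt-Rnr2 alone, both with a Benjamini-Hochberg adjusted p of 0.375 over the 30 such tests made.

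Of the mitochondrially encoded counts, transfer RNAs held 0.683, 0.713 and 0.573% in Kmo_AngII hearts, 0.988, 0.663 and 0.823% in AngII hearts and 0.607, 0.506 and 0.52% in Ctrl hearts, again with AngII above Ctrl in every library (exact permutation p = 0.1, n = 3 each). The ratio of mt-Rnr2 to mt-Rnr1 counts was higher in every WA library than in every WC library and overlapped between AngII and Ctrl. It was 1.83 ± 0.286 in WA and 1.39 ± 0.0717 in WC (SD, n = 3 each, exact permutation p = 0.1), and 1.66 ± 0.435 in AngII against 1.56 ± 0.188 in Ctrl (exact permutation p = 0.8, n = 3 each).

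**Figure D2:**
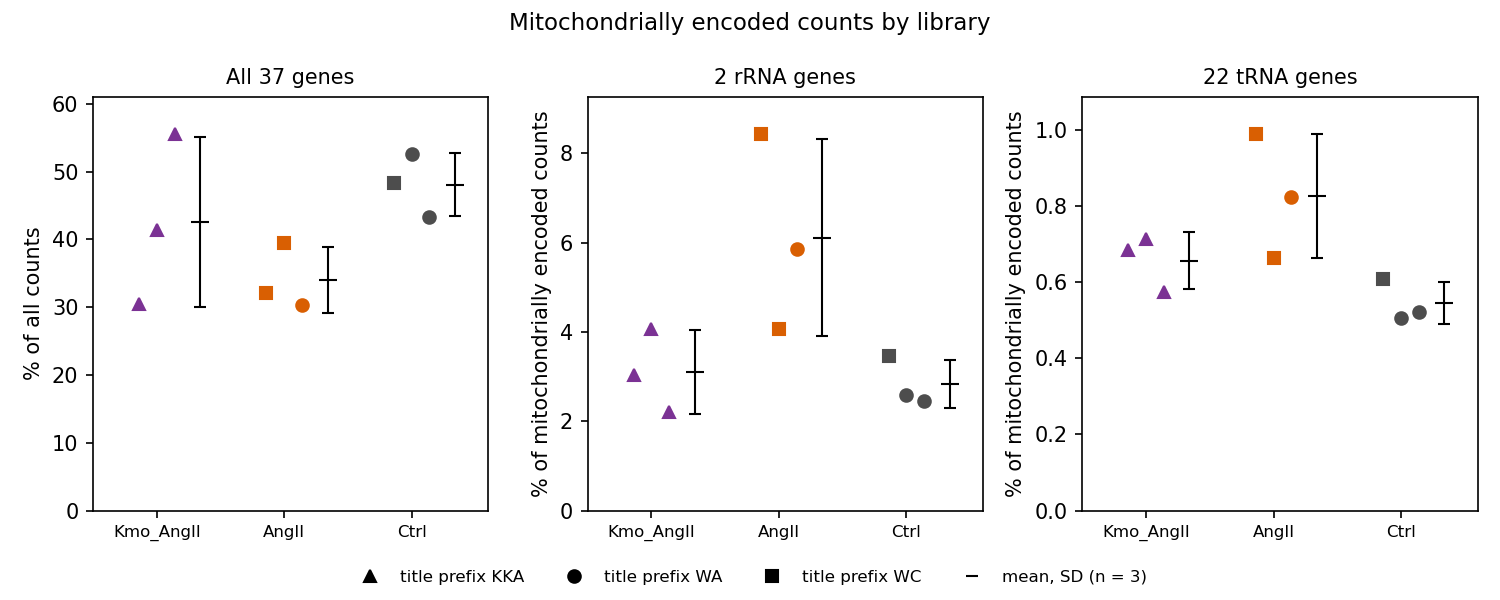
Share of all counts from the 37 mitochondrially encoded genes (left), and shares of the mitochondrially encoded counts from rRNA (middle) and transfer RNA (right), in percent, with 1 point per library, marker shapes for the title prefix and the mean with SD of 3 libraries beside each group. The AngII libraries lie between 30.3 and 39.5% on the left, all below the Ctrl libraries, and above all Ctrl libraries in the other panels.

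Gene by gene, all 13 protein genes had lower fitted levels in AngII than in Ctrl hearts under TMM scaling (mt-Nd3 was above 0 with libraries scaled by size alone), with log2 differences of -1.85 to -0.29 and a median of -1.36, against 0.022 over all 19091 genes tested. With edgeR's quasi-likelihood test, however, 0 of the 37 genes and 0 of 19091 genes (0%) passed an adjusted p under 0.05. At an unadjusted p under 0.05 there were 11 of 37 members (5.25% of all genes), all lower, against 2.62% of all genes lower. Of the 37, 32 were below 0 (20 when scaled by library size alone), against 48% of all genes under TMM. In 18 of the 37 the AngII libraries all lay below the Ctrl libraries, against 5.74% of all genes, and in 0 of 37 all above, against 6.44% of all genes. DESeq2 and limma with voom also called 0 of the 37, with 18 and 15 at an unadjusted p under 0.05, against 1331 and 1003 of all 19091 genes. The count of 11 rested on single libraries. Of the 37, 1 had an unadjusted p under 0.05 without Ctrl replicate 2 (437 of 19896 genes), without AngII replicate 1 (348 of 19697) or without AngII replicate 3 (1090 of 19732). There were 18 of the 37 without Kmo_AngII replicate 1 (1255 of 19742 genes). Without Ctrl replicate 2, one of the libraries with atrial marker RNA, the median of the 13 protein genes was -1.08. Since the genes of a strand are transcribed together, the 37 counts are not independent of one another.

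The 7 complex I subunits had log2 differences of -1.52 to -0.29, with a median of -1.41, and 4 had an unadjusted p under 0.05. mt-Nd4, a membrane subunit of the proton-pumping arm, had 24279, 34878 and 69134 CPM in Kmo_AngII hearts, 16546, 31794 and 20018 CPM in AngII hearts and 55671, 90738 and 49706 CPM in Ctrl hearts. All AngII values of mt-Nd4 were below all Ctrl values, and the difference was -1.52 ± 0.53 on the log2 scale (SE, edgeR adjusted p = 0.89). mt-Nd6 is the only protein gene on the opposite strand, and it had 7098, 8499 and 19686 CPM in Kmo_AngII hearts, 4922, 7449 and 5341 CPM in AngII hearts and 13008, 21254 and 12785 CPM in Ctrl hearts. Its log2 difference, -1.41 ± 0.49 (SE), was close to that of mt-Nd4 on the other strand. Whether reads were counted by strand is not given, so this does not compare the strands themselves.

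mt-Nd2 averaged 12981 ± 4807 CPM in AngII hearts and 35865 ± 10777 CPM in Ctrl hearts, and mt-Nd1 averaged 20646 ± 6801 CPM in AngII hearts and 46907 ± 6655 CPM in Ctrl hearts (SD, n = 3 each), with log2 differences of -1.47 and -1.18. Neither overlapped between the groups. mt-Nd5 (log2 difference -1.36 ± 0.64, SE) and mt-Nd4l (-1.51 ± 0.69) also did not overlap, with wider errors and unadjusted p-values above 0.05. mt-Nd3 stood apart. It had 3609, 4825 and 3676 CPM in Kmo_AngII hearts, 4243, 3753 and 3732 CPM in AngII hearts and 5712, 4798 and 3852 CPM in Ctrl hearts, so the groups overlapped and the difference was -0.29 ± 0.34 on the log2 scale (SE, edgeR adjusted p = 0.934).

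Complex III has a single mitochondrially encoded subunit, cytochrome b. mt-Cytb had 33610.1, 45425 and 86474 CPM in Kmo_AngII hearts, 23778, 39626 and 26556 CPM in AngII hearts and 67349, 110787 and 64562 CPM in Ctrl hearts. The AngII hearts were all lower than the Ctrl hearts, with a difference of -1.43 ± 0.50 on the log2 scale (SE, edgeR adjusted p = 0.89).

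In complex IV, cytochrome c oxidase, mt-Co1 had 80475, 113156 and 196641 CPM in Kmo_AngII hearts, 71716, 93193 and 73649.7 CPM in AngII hearts and 151055, 203031 and 162563 CPM in Ctrl hearts. Its AngII values lay below all Ctrl values, by -1.11 ± 0.46 on the log2 scale (SE, edgeR adjusted p = 0.89). mt-Co2, which receives electrons from cytochrome c, averaged 19502 ± 3301 CPM in AngII hearts and 41386 ± 11256 CPM in Ctrl hearts (SD, n = 3 each), a log2 difference of -1.09 without overlap. For mt-Co3 the values were 23590.4, 29016 and 33500.0 CPM in Kmo_AngII hearts, 20959, 23819 and 23191 CPM in AngII hearts and 38783, 40436 and 34949 CPM in Ctrl hearts. This was the smallest difference of the 3 complex IV genes, -0.75 ± 0.37 (SE, edgeR adjusted p = 0.89), although AngII and Ctrl did not overlap.

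mt-Atp8 had the lowest log2 difference of all 37 genes. It had 2769.9, 4681 and 12925 CPM in Kmo_AngII hearts, 1951, 4365 and 1864 CPM in AngII hearts and 7619.9, 14236 and 7716 CPM in Ctrl hearts. All AngII libraries were under all Ctrl libraries, with Ctrl replicate 2 the highest of all 9, and the difference was -1.85 ± 0.63 on the log2 scale (SE, edgeR adjusted p = 0.89). mt-Atp6, which forms part of the proton channel, averaged 19051 ± 5034 CPM in AngII hearts and 46186 ± 10850.4 CPM in Ctrl hearts (SD, n = 3 each), a log2 difference of -1.28 without overlap.

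**Figure D3:**
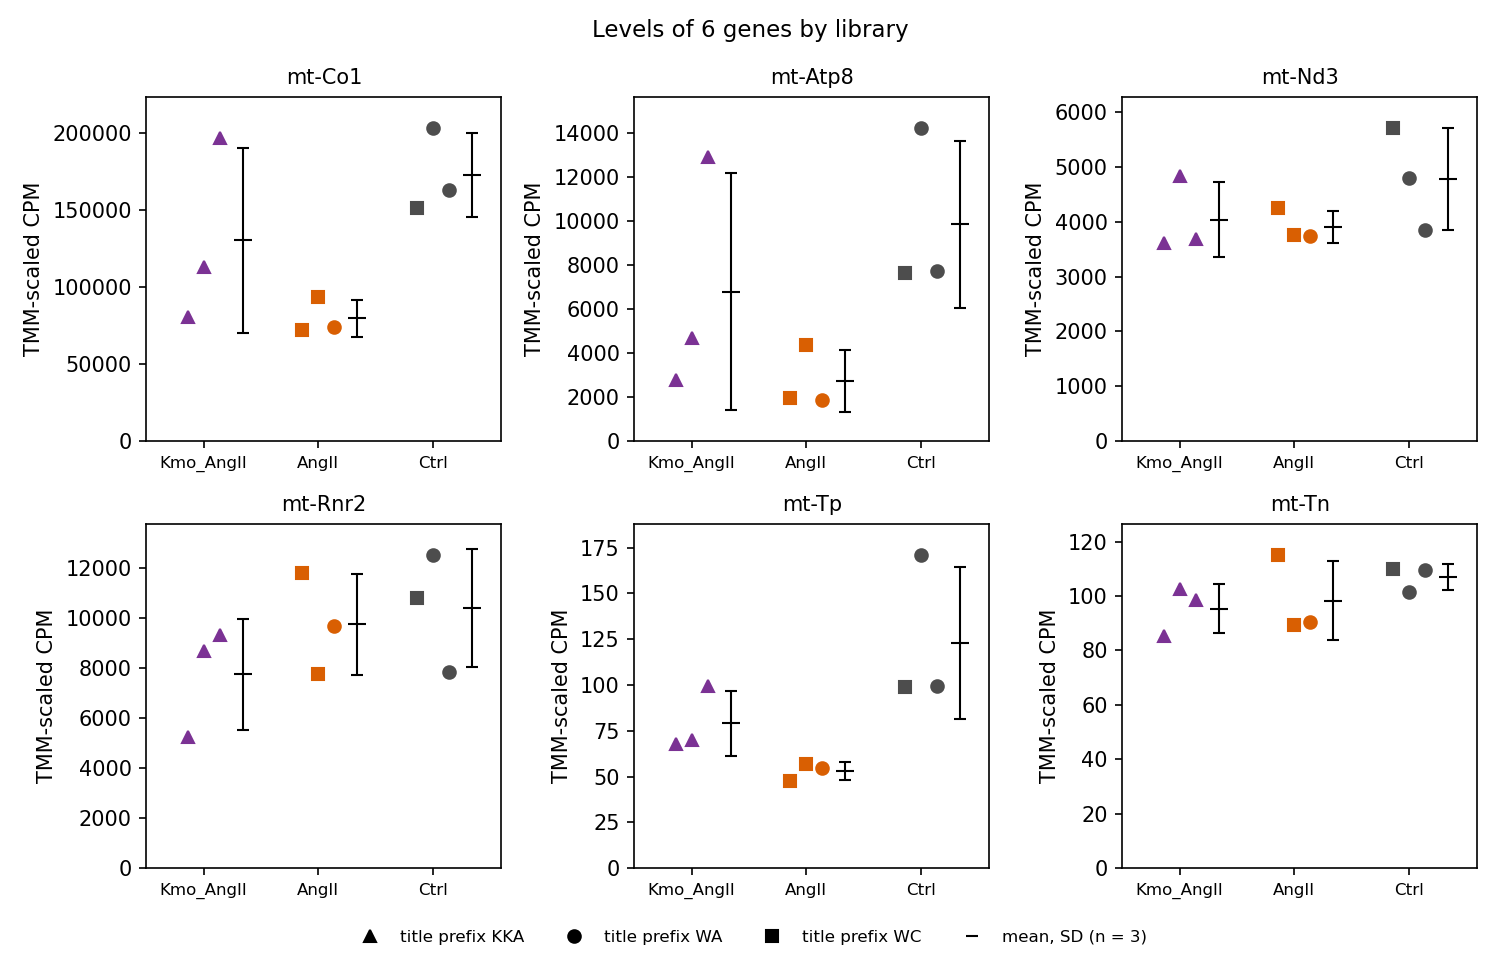
TMM-scaled CPM of 6 mitochondrially encoded genes, with 1 point per library, marker shapes for the title prefix and the mean with SD of 3 libraries beside each group. AngII points lie below all Ctrl points for mt-Co1, mt-Atp8 and mt-Tp, and overlap with Ctrl for mt-Nd3, mt-Rnr2 and mt-Tn.

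The rRNA genes lay closer to 0 than the protein genes under TMM, and above 0 when scaled by library size alone. mt-Rnr2 had 5239, 8685 and 9350.2 CPM in Kmo_AngII hearts, 11816, 7776 and 9713 CPM in AngII hearts and 10830.4, 12542 and 7864 CPM in Ctrl hearts, with AngII and Ctrl interleaved and a difference of -0.092 ± 0.40 on the log2 scale (SE, edgeR adjusted p = 0.987). mt-Rnr1 averaged 6099 ± 1793 CPM in AngII hearts and 6769 ± 1733 CPM in Ctrl hearts (SD, n = 3 each), a log2 difference of -0.15 ± 0.45 (SE). Whether the rRNA and protein gene differences differ from each other was tested only through the rRNA share above.

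Among the 22 transfer RNAs, 17 were below 0 and 5 above under TMM, with a median log2 difference of -0.41 (0.25 when scaled by library size alone). Of these, 2 had an unadjusted p under 0.05, both lower and both on the opposite strand. mt-Tp had 67.7, 70 and 99.5 CPM in Kmo_AngII hearts, 47.3, 56.6 and 54.5 CPM in AngII hearts and 98.8, 171 and 99.4 CPM in Ctrl hearts. Its AngII libraries were all below its Ctrl libraries, and the difference was -1.22 ± 0.28 on the log2 scale (SE, edgeR adjusted p = 0.89). Its p was the smallest of the 37 genes. mt-Te, which lies beside mt-Cytb and mt-Nd6, had 429, 577 and 1258 CPM in Kmo_AngII hearts, 347, 473 and 337 CPM in AngII hearts and 717, 969 and 696 CPM in Ctrl hearts. It did not overlap between AngII and Ctrl either, with a difference of -1.04 ± 0.43 on the log2 scale (SE, edgeR adjusted p = 0.89).

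On the same strand as most protein genes, mt-Tm (methionine, log2 difference -1.26 ± 0.68, SE), mt-Tl1 (-1.24 ± 0.59), mt-Tr (arginine, -1.20 ± 0.71) and mt-Td (aspartate, -1.19 ± 0.58) had differences as low as those of the protein genes, with wide errors and unadjusted p-values above 0.05. Of the 4 adjacent opposite-strand genes, mt-Ta (alanine, -0.21 ± 0.22), mt-Tn (asparagine, -0.12 ± 0.21) and mt-Tc (cysteine, 0.10 ± 0.22) lay near 0 on the log2 scale. The fourth, mt-Ty (tyrosine), had 52.8, 81.6 and 132 CPM in Kmo_AngII hearts, 62.6, 66.7 and 59.1 CPM in AngII hearts and 90.9, 123 and 92.9 CPM in Ctrl hearts, with all AngII libraries below all Ctrl libraries and a log2 difference of -0.71 ± 0.32 (SE). mt-Tk (lysine, -0.75 ± 0.69), mt-Tv (valine, -0.61 ± 0.53), mt-Tt (threonine, -0.48 ± 0.29), mt-Tq (glutamine, -0.43 ± 0.38), mt-Tw (tryptophan, -0.39 ± 0.30), mt-Ts1 (-0.29 ± 0.32), mt-Tf (phenylalanine, -0.058 ± 0.57) and mt-Tl2 (leucine, -0.050 ± 0.31) were also below 0 under TMM, and of these mt-Tt and mt-Tw did not overlap. mt-Ti (isoleucine, 0.11 ± 0.33), mt-Th (histidine, 0.34 ± 0.42), mt-Ts2 (0.39 ± 0.43) and mt-Tg (0.50 ± 0.89) were above 0. The 8 opposite-strand transfer RNAs had a median of -0.36 and the 14 others a median of -0.44, where it is not known whether reads were counted by strand. mt-Tn (85.4, 102 and 98.3 CPM in Kmo_AngII hearts, 115, 89.2 and 90.5 CPM in AngII hearts and 110.1, 101 and 109.6 CPM in Ctrl hearts) was the steadiest of the 37 genes over the 9 libraries, with a highest level 1.35 times its lowest. The same fold range was 9.26 for mt-Tr, 8.99 for mt-Tm and 7.64 for mt-Atp8, against 1.58 for mt-Nd3, the steadiest protein gene.

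These differences depend on what is held constant between libraries. When libraries were scaled by size alone, the median log2 difference of all 19091 genes in AngII minus Ctrl was 0.67 in place of 0.022, the median of the 13 protein genes -0.68 and that of the 2 rRNA genes 0.56, and 12 of the 37 changed sign, namely both rRNA genes, mt-Nd3 and the 9 transfer RNAs mt-Ta, mt-Tf, mt-Tl2, mt-Tn, mt-Tq, mt-Ts1, mt-Tt, mt-Tv and mt-Tw. Relative to the median of all genes, the protein genes were at -1.38 under TMM and -1.35 under library size alone, and the rRNA genes at -0.14 and -0.11. With the 6 Ctrl and AngII libraries fitted and the title prefix as a covariate, 23 of the 37 had an unadjusted p under 0.05, against 1658 of 18111 genes. None of the 37 was called, with a smallest adjusted p of 0.0742 over the alternatives for the members named here.

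**Figure D4:**
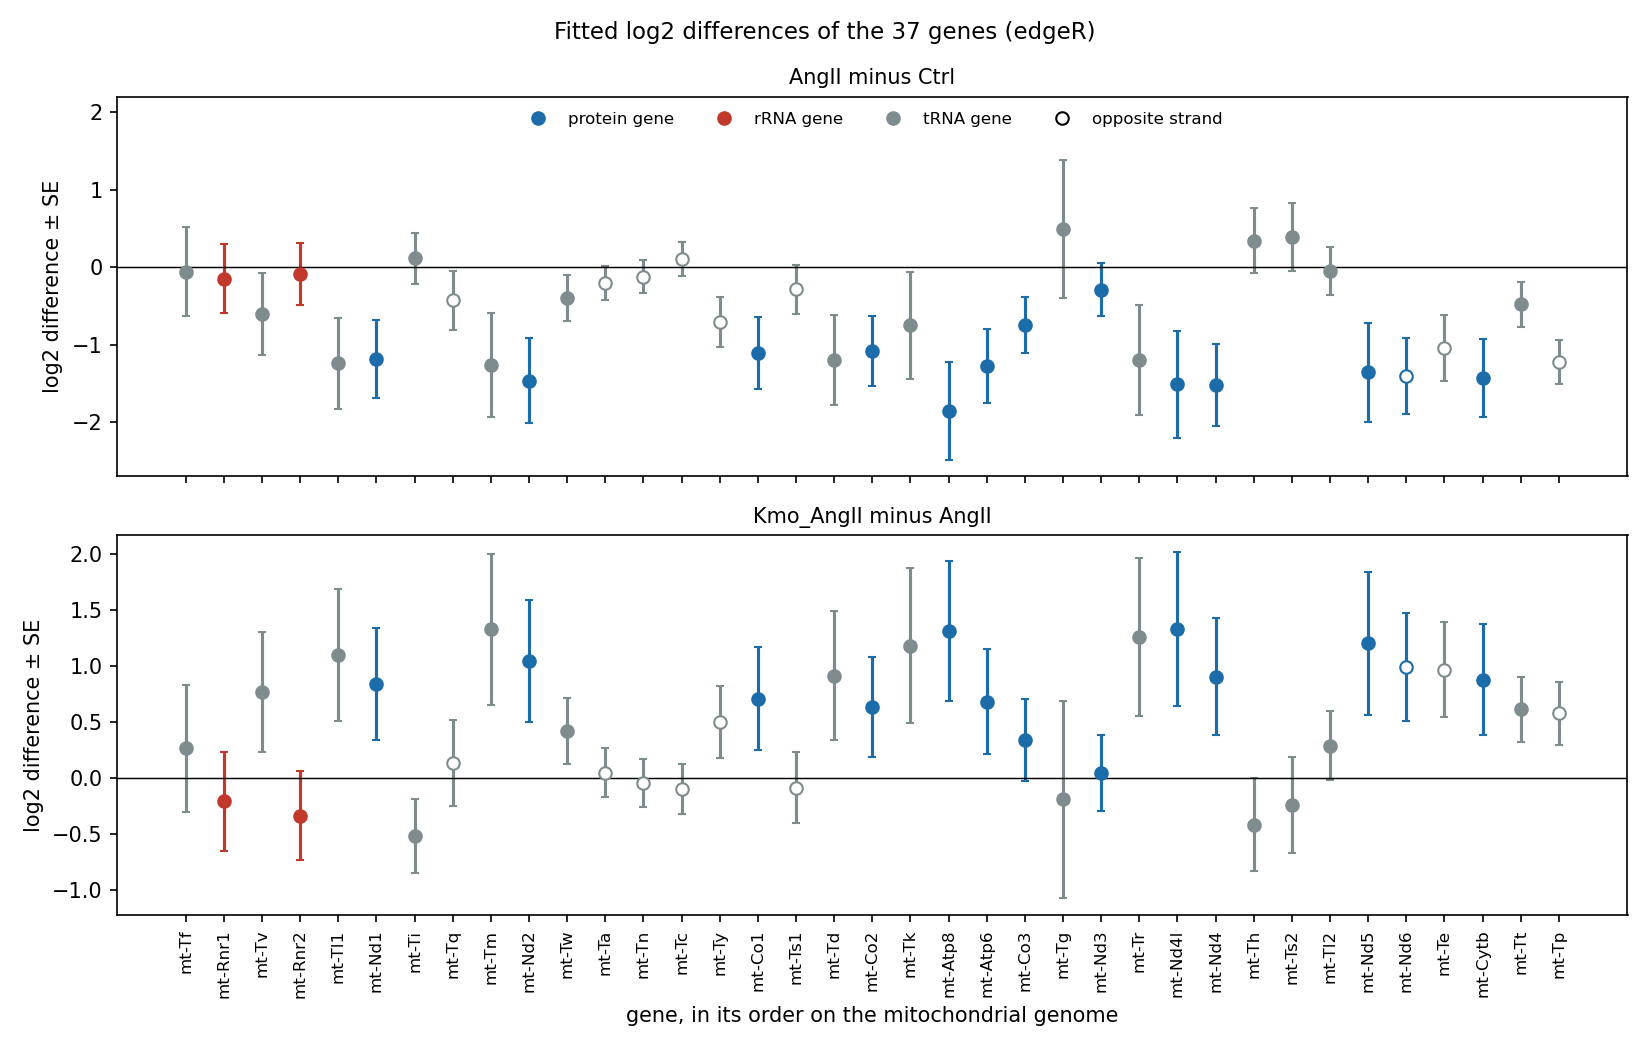
Fitted log2 differences with SE (edgeR) of the 37 genes in their order on the mitochondrial genome, AngII minus Ctrl above and Kmo_AngII minus AngII below, coloured by class, with open symbols for genes on the opposite strand. In the upper panel the protein genes lie between -1.85 and -0.29 and both rRNA genes near 0 under TMM scaling (mt-Nd3 and both rRNA genes lie above 0 when scaled by library size alone). In the lower panel all 13 protein genes lie above 0 (all but mt-Nd3 and mt-Co3 when scaled by library size alone) and both rRNA genes below.

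The AngII difference was also fitted within each title prefix, on the 6 Ctrl and AngII libraries. Within WA all 13 protein genes were below 0, with a median log2 difference of -1.65, and within WC all 13 were below 0, with a median of -1.06. AngII and Ctrl levels did not overlap for any protein gene but mt-Nd3, so the same sign within both prefixes adds no support. WA holds 1 AngII library and WC holds 1 Ctrl library, so this fit leaves 2 residual degrees of freedom and takes the spread of those lone libraries from the others. The test of the difference between the prefixes (edgeR interaction term) called 12 of 20778 genes and 0 of the 37, and 0 of the 37 had an unadjusted p under 0.05, which does not show that the prefixes behave alike. Of the 37, mt-Atp8 had the smallest p for this term, with -1.27 ± 0.86 (SE, edgeR adjusted p = 1.0).

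The makeup of the protein gene counts also differed between libraries. As a share of the counts of all 13 protein genes, mt-Co3 had 9.18, 7.93 and 4.92% in Kmo_AngII hearts, 9.82, 7.5 and 10.2% in AngII hearts and 7.38, 5.4 and 7.0% in Ctrl hearts. mt-Nd3 had 1.4, 1.32 and 0.54% in Kmo_AngII hearts, 1.99, 1.18 and 1.65% in AngII hearts and 1.09, 0.641 and 0.772% in Ctrl hearts. Both were higher in all AngII libraries than in all Ctrl libraries, and both were lowest in Kmo_AngII replicate 3, the library with the highest mitochondrial share. On the other side, mt-Atp8 had 1.08, 1.28 and 1.9% in Kmo_AngII hearts, 0.914, 1.37 and 0.822% in AngII hearts and 1.45, 1.9 and 1.55% in Ctrl hearts, with every AngII library below every Ctrl library.

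mt-Cytb averaged 11.8 ± 0.666% in AngII and 13.5 ± 1.11% in Ctrl, and mt-Nd6 averaged 2.34 ± 0.0251% in AngII and 2.63 ± 0.19% in Ctrl (SD, n = 3 each), also lower in AngII without overlap. The direction was the same within WA and within WC for these 5 genes, which follows from the lack of overlap and adds no support. Of these, mt-Co3 and mt-Nd3 have a near-identical nuclear model, while mt-Atp8, mt-Cytb and mt-Nd6 have none. Whether the shares keep their order with the counts of the models added was not tested. Each of the 5 had an exact permutation p of 0.1, the smallest possible, and a Benjamini-Hochberg adjusted p of 0.678 over 13 genes and 4 comparisons. mt-Co1 held the largest part, 31.8 ± 2.22% in AngII and 29.5 ± 2.8% in Ctrl (SD, n = 3 each), with overlap. Over the 3 treatment groups the smallest exact permutation p of the F statistic was 0.0321, for mt-Cytb, with an adjusted p of 0.342 over the 13 genes.

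**Figure D5:**
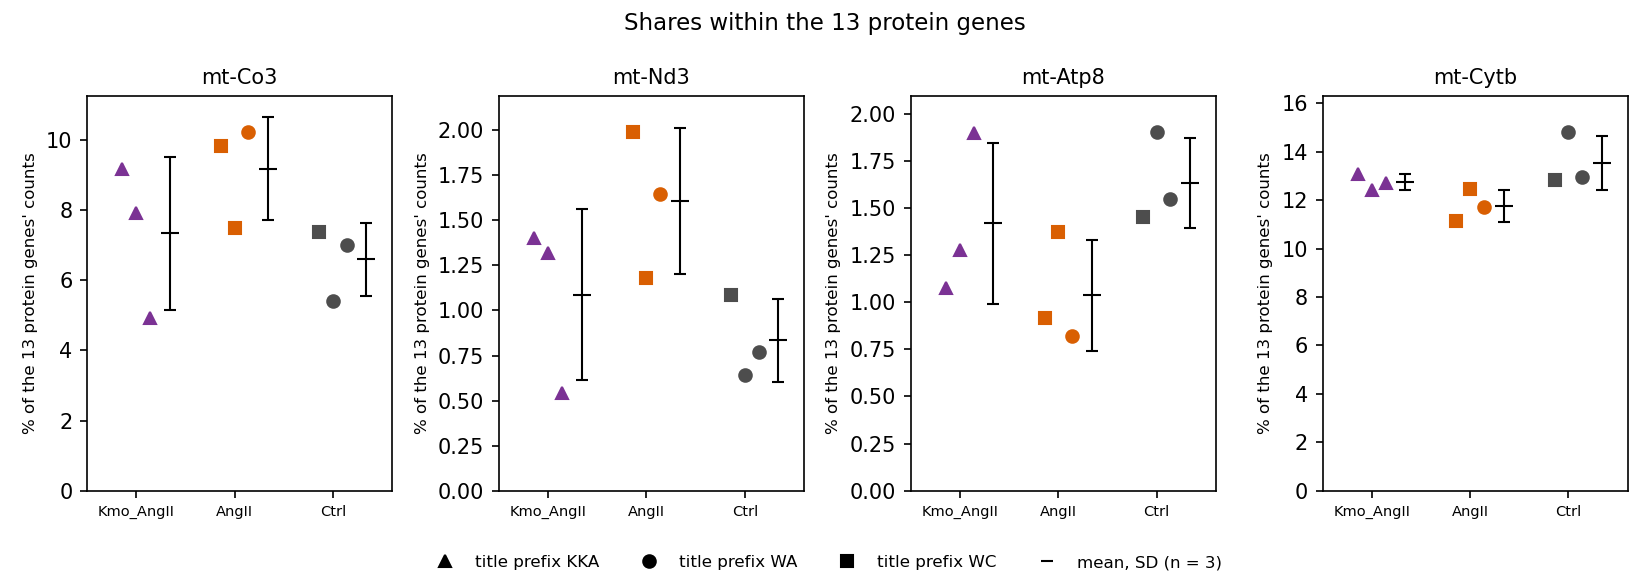
Shares of 4 genes in the summed counts of the 13 protein genes, in percent, with 1 point per library, marker shapes for the title prefix and the mean with SD of 3 libraries beside each group. mt-Co3 and mt-Nd3 take larger shares in all AngII than in all Ctrl libraries, and mt-Atp8 and mt-Cytb smaller ones.

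Gene length, base composition and position did not line up with the size of the difference. Over the 13 protein genes, Pearson's r between the AngII minus Ctrl log2 difference and GC content was 0.049, with log length 0.021 and with gene order -0.10, given as a description because the genes share their libraries. The 7 genes with a near-identical nuclear model had a median log2 difference of -1.11 and the 6 without one -1.42. The models themselves differed from their genes by 0.00932 to 0.33 in AngII minus Ctrl log2 difference, with the largest gap for Gm29216 (-0.79) against mt-Co1 (-1.11).

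Kmo_AngII hearts had higher fitted levels of most mitochondrially encoded genes than AngII hearts, but the libraries of Kmo_AngII differed widely from each other. All 13 protein genes (all but mt-Nd3 and mt-Co3 when scaled by library size alone) and 28 of the 37 genes were above 0 in Kmo_AngII minus AngII, so 9 of 37 were below 0 (15 when scaled by library size alone), against 45.5% of all genes below 0. The median of the protein genes was 0.88 and that of all genes 0.033 on the log2 scale, and the protein gene median was 0.28 without Kmo_AngII replicate 3. With edgeR 0 of 37 and 0 of 19091 genes (0%) were called, and at an unadjusted p under 0.05 there was 1 of 37, against 2.16% of all genes in either direction and 1.54% higher. That gene was mt-Te, which differed by 0.97 ± 0.42 on the log2 scale (SE, edgeR adjusted p = 1.0). With DESeq2 and limma with voom 0 of the 37 were called, and 12 and 0 had an unadjusted p under 0.05, against 584 and 412 of 19091 genes. With edgeR 19 of the 37 had an unadjusted p under 0.05 without Kmo_AngII replicate 1 (973 of 19742 genes) and 6 without AngII replicate 2 (488 of 19731 genes). There were 0 of the 37 without Kmo_AngII replicate 3, AngII replicate 1 or 3, or Ctrl replicate 1 or 3, against 295 to 456 of all genes tested. Only mt-Tp had all libraries of Kmo_AngII above all libraries of AngII (log2 difference 0.58 ± 0.28, SE), against 3.22% of all genes.

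Among the protein genes, the largest fitted differences in Kmo_AngII minus AngII were for mt-Nd4l (1.33 ± 0.69, SE) and mt-Atp8 (1.32 ± 0.62), and the smallest for mt-Nd3 (0.046 ± 0.34). mt-Nd4l had 1422, 2395 and 8293 CPM in Kmo_AngII hearts, 1122, 2583 and 1103 CPM in AngII hearts and 3679.9, 7104 and 2924 CPM in Ctrl hearts, which shows that Kmo_AngII replicate 3 alone was above the highest AngII library. Without that replicate the log2 difference was 0.25 for mt-Nd4l and 0.45 for mt-Atp8. For the share of all counts, Kmo_AngII minus AngII was 8.56 points with all 3 libraries (exact permutation p = 0.3) and ranged from 2.05 points without Kmo_AngII replicate 3 to 14.6 points without Kmo_AngII replicate 1, where the groups did not overlap (exact permutation p = 0.1, and no smaller p is possible with 10 splits). Kmo_AngII replicate 3 also had the highest atrial, adipocyte and fibroblast marker sums of the series and the lowest cardiomyocyte sum, and the part of these in the result was not tested.

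Both rRNA genes lay below 0 in Kmo_AngII minus AngII, with -0.21 ± 0.45 for mt-Rnr1 and -0.33 ± 0.40 for mt-Rnr2 on the log2 scale (SE). Against Ctrl, Kmo_AngII hearts had 26 of the 37 genes below 0 (17 when scaled by library size alone), against 44.6% of all genes, with a protein gene median of -0.42. In Kmo_AngII minus Ctrl 0 of 37 and 0 of 19091 genes (0%) were called, and 1 of 37 had an unadjusted p under 0.05, against 2.79% of all genes in either direction and 0.911% lower. This was mt-Tp, -0.64 ± 0.28 (SE, edgeR adjusted p = 0.998). DESeq2 had 2 and limma with voom 1 of the 37 at that threshold, and both called 0. mt-Co3 was the only member without overlap (-0.41 ± 0.36, SE), lower in Kmo_AngII, against 2.64% of all genes. mt-Co1 (-0.40 ± 0.46) and mt-Atp8 (-0.54 ± 0.62) overlapped. Without Kmo_AngII replicate 3 the protein gene median was -1.02 and 8 of the 37 had an unadjusted p under 0.05. The median was -0.16 without Kmo_AngII replicate 1 and -0.24 without Ctrl replicate 2, with 0 of the 37 in each. The 3 treatment comparisons share libraries, so their values are not independent.

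Between the title prefixes the mitochondrially encoded genes lay on both sides of 0. Most organelle content markers and most nuclear subunits of complexes I, III and IV and of ATP synthase lay above it. In WA minus WC, 19 of the 37 genes were above 0 and 18 below (25 below when scaled by library size alone), against 51.7% of all genes below. With edgeR no member was called and 0 of 37 had an unadjusted p under 0.05, against 18% of all genes, and mt-Tf alone had no overlap, against 17.2% of all genes lower in WA. mt-Tf had 1.4, 2.12 and 1.91 CPM in WA hearts and 3.11, 3.02 and 3.79 CPM in WC hearts, differing by -0.87 ± 0.49 on the log2 scale (SE, edgeR adjusted p = 0.36). With the treatment label as a covariate on the 6 libraries it was the 1 of 37 members called, against 1946 of 18111 genes. In that fit mt-Tf differed by -1.0 ± 0.28 (SE, edgeR adjusted p = 0.0441), and its adjusted p over the alternatives ranged from 0.0441 to 0.589.

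WA holds 2 Ctrl libraries and WC holds 1, so the protein gene median of 0.52 in WA minus WC is not free of the treatment, and with the treatment as a covariate it was -0.080. It also rested on single libraries, at 0.0096 without Ctrl replicate 2, 0.24 without AngII replicate 1, 0.88 without AngII replicate 3 and 0.91 without Ctrl replicate 1. For comparison, all 14 organelle content markers (among them Timm23, a subunit of the protein import channel of the inner membrane, 1.24 ± 0.42, SE) lay above 0, with a median of 0.74, and 13 of them did not overlap, against 16.5% of all genes higher in WA. Of the nuclear subunits, 35 of 36 of complex I, 9 of 9 of complex III, 12 of 12 of complex IV and 15 of 15 of ATP synthase were above 0, with medians of 0.58, 0.74, 0.48 and 0.54. These are TMM values, and when libraries were scaled by size alone the median of all genes was -0.33 in place of -0.030. None of these genes passed an adjusted p under 0.05 in the fit of 9 libraries, whereas Timm23 did with the treatment as a covariate (log2 difference 1.11), with an adjusted p between 0.0053 and 0.546 over the alternatives (edgeR, DESeq2 and limma). Haemoglobin RNA did not overlap between the prefixes, with 0.0144, 0.0329 and 0.0364% of all counts in WA and 0.986, 0.345 and 0.603% in WC.

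Across the 9 libraries, 7 relations of the summed protein gene counts to other measures were computed, with counts divided by the nuclear counts of the library and p-values adjusted over the 7. Transfer RNA counts per nuclear count went with protein gene counts per nuclear count. For this relation Pearson's r was 0.939 (permutation p = 0.000336, adjusted 0.00235) and Spearman's rho 0.867 (permutation p = 0.00451, adjusted 0.0316), and r was 0.838 (permutation p = 0.0202) without the 2 libraries farthest from the median, Ctrl replicate 2 and Kmo_AngII replicate 3. Both measures share their denominator and their library. The permutation breaks this sharing, so its p cannot separate a relation between the classes from the common divisor. A relation between their shares of all counts was not tested. The same limit holds for the other measures divided by nuclear counts. Each prefix holds 3 libraries, too few for a correlation of their own. With every value taken as its deviation from the mean of its prefix, a setting chosen after seeing the data and given as a description, r was 0.963 for transfer RNA, 0.661 for rRNA, -0.802 for the nuclear respiratory subunits, -0.764 for the organelle content markers, -0.342 for cardiomyocyte markers, 0.0676 for haemoglobin and -0.363 for the total count. For the rRNA counts Pearson's r was 0.472 (permutation p = 0.198, adjusted 0.346) and Spearman's rho 0.433 (permutation p = 0.25, adjusted 0.437). The summed nuclear respiratory subunits ran the other way but did not pass, since Pearson's r was -0.659 (permutation p = 0.0543, adjusted 0.19) and Spearman's rho -0.567 (permutation p = 0.121, adjusted 0.281), with r = -0.551 without AngII replicate 2 and Kmo_AngII replicate 3. The organelle content markers (r = -0.57, adjusted permutation p = 0.262) did not pass either, and without Kmo_AngII replicates 1 and 3 their r was -0.0673. The relations to cardiomyocyte markers (r = -0.23), haemoglobin (r = -0.144) and the total count (r = -0.222) had adjusted permutation p-values of 0.666 to 0.733.

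The nuclear genes that copy, transcribe and translate the mitochondrial genome were called in none of the 4 comparisons by edgeR. Their counts in AngII minus Ctrl are given under TMM scaling, where all genes had a median of 0.022. Of the 9 genes for replication and packaging of the mitochondrial DNA, 6 were above 0 (median 0.22), and Polg, the catalytic subunit of the mitochondrial DNA polymerase, had the smallest p. It averaged 49.6 ± 5.84 CPM in AngII and 36.9 ± 3.16 CPM in Ctrl (SD, n = 3 each), which differed by 0.43 ± 0.19 on the log2 scale (SE, edgeR adjusted p = 0.89). Of 8 genes for transcription, 5 were above 0 (median 0.070), and Tfb2m, a factor that opens the promoters for the mitochondrial RNA polymerase, differed by -0.66 ± 0.26 (SE). Among 8 genes for RNA stability and decay 5 were below 0 (median -0.17), with Rexo2, an enzyme that degrades short RNA, at -0.88 ± 0.24 (SE, edgeR adjusted p = 0.89) and no overlap between the groups.

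RNA processing and modification genes had 16 of 27 below 0 (median -0.087), with the transfer RNA modification gene Gtpbp3 at 0.53 ± 0.26 (SE). Translation factors had 8 of 12 below 0 (median -0.11), with Oxa1l, which inserts newly made proteins into the inner membrane, at -0.54 ± 0.25 (SE). The biogenesis regulators had 7 of 11 below 0 (median -0.040), with Nrf1 at 0.40 ± 0.19 (SE). The stress response genes had 7 of 13 above 0 (median 0.19), with Trib3 at 0.87 ± 0.42 (SE). Nuclear subunits had 18 of 36 below 0 for complex I (median -0.019), 5 of 9 for complex III (-0.0067), 5 of 12 for complex IV (0.14) and 8 of 15 for ATP synthase (-0.11), so the log2 differences of the mitochondrially encoded subunits stood beside nuclear ones with medians near 0. The leading genes of these 4 lists were Ndufa2 (0.94 ± 0.46), Uqcrb (-0.64 ± 0.42), Cox6a2 (-0.72 ± 0.34) and Atp5e (1.0 ± 0.50, SE). Organelle content markers had 11 of 14 below 0 (median -0.26), with Cycs, cytochrome c, at -0.82 ± 0.49 (SE).

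The aminoacyl-tRNA synthetases, which load amino acids onto the transfer RNAs, had 14 of 22 below 0 (median -0.15). Gatc, part of the complex that makes glutaminyl-tRNA, had the smallest p of the list, -0.93 ± 0.25 (SE, edgeR adjusted p = 0.89). Lars2, the mitochondrial leucyl-tRNA synthetase, was singled out after its values were seen. It had 252, 79.3 and 56.2 CPM in Kmo_AngII hearts, 390.4, 59.5 and 228 CPM in AngII hearts and 82.3, 73 and 79.8 CPM in Ctrl hearts. Lars2 was thus highest in AngII replicates 1 and 3 and Kmo_AngII replicate 1, which are the 3 libraries with the lowest mitochondrial share of all counts. The other synthetases are not set against this share here, so the match is a chosen pattern. The log2 difference of Lars2 in AngII minus Ctrl was 1.53 ± 0.68 (SE, edgeR adjusted p = 0.89), with overlap between the groups.

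The candidate nuclear copies of mitochondrial DNA, a list of 8 gene models (Gm10925, Gm28437, Gm28438, Gm28439, Gm28661, Gm29216, Gm13340 and Gm13341), were all below 0 in AngII minus Ctrl under TMM (median -1.13), as the genes they resemble were. Gm13341, which matches mt-Co2 at 95.9% identity and so can be told apart from it in many reads, had 0.00274 to 0.00427 times the count of mt-Co2 and differed by -1.33 ± 0.34 on the log2 scale (SE, edgeR adjusted p = 0.89). Of the marker lists for cell types, the medians in AngII minus Ctrl were -0.44 for cardiomyocytes (9 of 10 below 0), -0.46 for fibroblasts, 0.15 for endothelial cells, -0.38 for macrophages, -0.18 for T and NK cells, 0.48 for red cells, -1.78 for adipocytes and -4.84 for atrial muscle, where Ctrl replicate 2 stood above the other 5 libraries. Among 6 nuclear RNAs without a poly(A) tail only 2 passed the filter, and the list summed to at most 2.03 CPM. The part of these markers in the differences of the mitochondrially encoded genes was not tested.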

How the data were processed

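Per the labels' protocols, heart RNA was extracted in Trizol and its poly(A) fraction sequenced as paired-end libraries. The authors deposited a table of whole-number counts for 55401 genes, unscaled for depth or length, per the file headers. HISAT2 2.0, StringTie 1.3.0 and Bowtie 0.12.2 are the tools listed, and mm8 the build, per the submitters' processing notes, with no roles or order. How reads were counted, and whether by strand, is not given in the sources used here, so reads of overlapping genes on opposite strands cannot be told apart. No coordinates are printed, because sequences and gene order come from GENCODE M21 (GRCm38). Symbols matched 55141 genes and 260 kept their identifier.

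Groups followed the description label, and replicate numbers follow accession order and pair nothing. Counts of all 9 libraries were fitted with edgeR 4.0.16 in R 4.3.3 (TMM, filterByExpr, robust quasi-likelihood F test, Benjamini-Hochberg over 19091 genes, calls at an adjusted p under 0.05). The approach was run on simulated counts with genes drawn independently, unlike the members here, and the outcome is not given here. SE is the fitted difference divided by the root of F. Levels are TMM-scaled CPM. Shares were compared by two-sided exact permutation tests with SciPy 1.17.1. No 2 libraries agreed within counting noise (lowest chi-square per degree of freedom 56.6 over 36 pairs). Nuclear copies were found with BLAST 2.17.0, with at least 100 matched bases, and nuclear counts in the relations leave out the 7 near-identical models. Alternatives were DESeq2 1.42.0, limma 3.58.1 with voom, other scalings and filters, other sample sets and each library left out. Leaving out the near-identical models, or counting them as members, was chosen after seeing the data. The text names every member, the leading gene of each of the lists on mitochondrial gene expression, and the nuclear copies. Lars2 is named outside this rule. The members and the 23 gene lists were chosen with earlier results of these data known. With 3 libraries a group the spread between libraries, not depth, limits the precision of all but the lowest transfer RNAs.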

Additional observations from a re-analysis of the deposited data

How the results depend on the processing

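Across the alternatives 0 of the 37 genes were called, except mt-Tf in WA minus WC with the treatment as a covariate (1 member called, against 1946 of 18111 genes). The named protein genes other than mt-Nd3 stayed below 0 in AngII minus Ctrl under every alternative run, and between 1 (library size only, or without Ctrl replicate 2, AngII replicate 1 or AngII replicate 3) and 23 (title prefix as a covariate) of the 37 had an unadjusted p under 0.05. Over all genes this held for 5635 of 19091 with library size only and 1658 of 18111 with the title prefix as a covariate. Scaled by library size alone, the median of the 37 was -0.091 in AngII minus Ctrl, and mt-Nd3 (0.36), mt-Rnr1 (0.53), mt-Rnr2 (0.60), mt-Ts1 (0.40), mt-Tn (0.54), mt-Tf (0.58), mt-Tl2 (0.60), mt-Tq (0.24), mt-Tt (0.16), mt-Tv (0.045), mt-Tw (0.26) and mt-Ta (0.45) changed sign, 12 of the 37 in all. So did 6 of the 37 in Kmo_AngII minus AngII, among them mt-Nd3 (-0.28) and mt-Co3 (-0.013), and the nuclear genes Oxa1l (0.11) and Uqcrb (0.043) in AngII minus Ctrl. These shifts follow that of the median of all genes. With the treatment as a covariate mt-Atp8 was -0.10 in WA minus WC. The fit without this covariate is not free of the treatment, because WA holds 2 Ctrl libraries and WC holds 1.

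Counts of called genes over the whole table moved more than those of the members. DESeq2 called 2 genes in AngII minus Ctrl, 3 in Kmo_AngII minus AngII, 9 in Kmo_AngII minus Ctrl and 505 in WA minus WC. Fitting only the groups compared called 1 in Kmo_AngII minus Ctrl and 2409 in WA minus WC, where the treatment covariate gave 1946, library size only 11 and no filter 5. The causes were not tested. Leaving out 1 library at a time gave 0 to 1 called genes in each treatment comparison, and 0 to 1576 in WA minus WC (1576 without Kmo_AngII replicate 1).

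Over the fits that leave out 1 library, AngII minus Ctrl ranged from -0.40 to 0.028 for mt-Rnr1, -0.26 to 0.063 for mt-Rnr2, -0.076 to 0.27 for mt-Tc, -0.24 to 0.32 for mt-Tf, -0.081 to 0.33 for mt-Ti and -0.22 to 0.19 for mt-Tl2. Kmo_AngII minus AngII ranged from -0.10 to 0.12 for mt-Nd3 and -0.45 to 0.088 for mt-Rnr1. The difference in the share of all counts ranged from -16.9 to -11.9 points in AngII minus Ctrl, 2.05 to 14.6 in Kmo_AngII minus AngII, -12.1 to 0.41 in Kmo_AngII minus Ctrl and -3.11 to 8.03 in WA minus WC. The rRNA share of mitochondrially encoded counts ranged from 2.12 to 4.31 points in AngII minus Ctrl and -0.213 to 0.719 in Kmo_AngII minus Ctrl. No paired analysis was possible because the labels give no replicate numbers shared between groups. Differences within the spread of 3 libraries were not detectable, and mt-Tg, with as few as 7 counts, is also limited by depth.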
